A study of Mus musculus with 15 samples.

Results

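The 37 genes described here encode the machinery that copies DNA and divides the cell, and were taken from a written list of S-phase and mitotic genes. The Ensembl identifiers of the deposited table of 19475 genes were mapped to mouse symbols, and all 37 listed genes were in the table. The RNA came from E16.5 brains of 15 C57BL/6J embryos, which were WT, heterozygous for the K228E allele of *Tbr1* (labelled *Tbr1* hetero, here *Tbr1*+/K228E), or homozygous (labelled *Tbr1* homo, here *Tbr1* K228E/K228E). Each genotype had 5 embryos, of which 3 were females and 2 were males. The K228E change lies in the gene of the cortical transcription factor TBR1 and is carried as a germ line knock-in in every cell. The selection cassette of the knock-in had been removed with a Cre line active in the male germ line. The labels give the tissue as brain, whereas the study describes it as forebrain, and the labels name no litter. Values are normalized read counts, that is, estimated reads per gene divided by a size factor for each library.

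In the E16.5 forebrain, dividing cells are mostly radial glia and intermediate progenitors, which line the ventricles, whereas *Tbr1* is best known from neurons that have left the cell cycle. A cell that enters the cycle switches on D-type cyclins, which lead to the release of E2F transcription factors from the pocket proteins. E2F then turns on genes for origin licensing and DNA synthesis. Genes of G2 phase and mitosis are switched on later, largely by a complex of MuvB with B-MYB and FOXM1, which acts at a promoter word known as the cell cycle genes homology region (CHR).

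The sum of normalized counts lay between 30.5 and 31.8 M (M for megareads), but division by size factors brings these sums close together. Depth was estimated from the most frequent low value of each library, taken as a single read. This is a rough measure, as the values are not multiples of whole reads. It lay between 26.2 M in WT embryo 4 and 38.0 M in heterozygote 3, with 27.0 M in homozygote 3 and 27.7 M in homozygote 2. Mitochondrial transcripts took 2.31 to 2.63% of the counts. The Y-linked transcripts *Ddx3y* and *Eif2s3y* were at 0 in all 9 females and at 1163 or above in all 6 males, so the sex labels held. No pair of libraries held identical values, and libraries of one genotype had correlations across genes of 0.971 to 0.988 on the log2 scale.

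All 37 genes passed the filter on low values, a mean of at least 5 normalized counts, together with 16507 of the genes in the table. Their means ranged from 167 for *Gmnn* to 4471 for *Mki67*. At that level, counting error alone gives an SD of 0.022 to 0.11 on the log2 scale. Divided by the median length of the annotated transcripts of each gene, the highest levels were those of *Pcna*, the sliding clamp of the replication fork (1693 normalized counts per kb), and *Mcm7*, a subunit of the replicative helicase (1341 per kb). *Top2a*, the topoisomerase of dividing cells, followed with 799 per kb, and *Rrm2*, a subunit of ribonucleotide reductase, with 641 per kb. The lowest level per length was that of the licensing factor *Cdc6* (47.2 per kb), and the median of the 37 genes was 302 per kb.

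The promoters were searched for the words through which these waves of transcription are known to act. RefSeq promoter windows of GRCm38.p6, which run from 250 bases before to 50 bases after the start of a gene, were matched by symbol to 31 of the 37 genes. In 26 of their 33 windows the bases after the start were found in an annotated transcript, and in the *Mcm6* window they were not. The *Cdca8* window lay inside the annotated gene. The shares below thus rest in part on starts that the annotation does not share. Windows for *Aurkb*, *Ccna2*, *Ccnd1*, *Gmnn*, *Mcm4*, and *Tpx2* were not used here. Both strands were searched for the E2F words TTTCCCGC, TTTCGCGC, TTTGCCGC, and TTTGGCGC, for the CHR words TTTGAA and also TTCGAA, and for CCAAT, the word bound by NF-Y. An E2F word stood in the windows of 7 of 12 genes of G1 phase, licensing, and DNA synthesis (58.3%), in 1 of 19 genes of G2 phase and mitosis (5.26%), and in 2.6% of 27025 genes with a window. A CHR word stood in 3 of the 12 (25.0%), in 15 of the 19 (78.9%), and in 21.7% of all genes. CCAAT was found in 8 of the 12 (66.7%), 17 of the 19 (89.5%), and 41.1% of all genes. A match of letters is a description and not a site shown to be bound.

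The following 250 bases before the start are shown for 5 genes, chosen as 2 licensing genes with E2F words, 2 mitotic genes with CHR words, and *Cdk1*, which has both. Capitals mark the E2F, CHR, and CCAAT words in either orientation, and the E2F words of *Mcm6* that overlap form a single run of capitals. All are from GRCm38.p6 and are written 5′ to 3′ on the strand of the gene.
Cdc6, chr11:98907901-98908150, plus strand: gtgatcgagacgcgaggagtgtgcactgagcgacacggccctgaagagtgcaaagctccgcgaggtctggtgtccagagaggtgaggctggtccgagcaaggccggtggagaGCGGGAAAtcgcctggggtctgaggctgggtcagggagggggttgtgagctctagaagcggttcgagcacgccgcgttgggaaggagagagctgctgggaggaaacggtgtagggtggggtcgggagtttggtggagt
Mcm6, chr1:128359706-128359955, minus strand: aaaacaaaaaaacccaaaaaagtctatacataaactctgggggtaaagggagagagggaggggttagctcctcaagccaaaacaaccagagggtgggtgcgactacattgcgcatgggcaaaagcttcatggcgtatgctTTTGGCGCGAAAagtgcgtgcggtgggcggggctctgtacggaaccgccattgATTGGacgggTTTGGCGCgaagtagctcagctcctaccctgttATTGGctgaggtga
Cdk1, chr10:69352913-69353162, minus strand: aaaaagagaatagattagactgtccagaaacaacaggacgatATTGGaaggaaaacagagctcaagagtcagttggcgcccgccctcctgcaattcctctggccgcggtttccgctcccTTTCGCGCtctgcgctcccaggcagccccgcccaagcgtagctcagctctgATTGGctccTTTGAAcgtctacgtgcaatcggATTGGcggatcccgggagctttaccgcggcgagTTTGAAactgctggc
Cdc20, chr4:118437344-118437593, minus strand: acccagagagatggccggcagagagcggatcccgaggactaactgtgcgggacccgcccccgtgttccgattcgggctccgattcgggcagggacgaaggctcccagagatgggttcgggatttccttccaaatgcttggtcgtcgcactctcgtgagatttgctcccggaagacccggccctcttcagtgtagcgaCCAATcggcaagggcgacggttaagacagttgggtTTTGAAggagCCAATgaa
Top2a, chr11:99024190-99024439, minus strand: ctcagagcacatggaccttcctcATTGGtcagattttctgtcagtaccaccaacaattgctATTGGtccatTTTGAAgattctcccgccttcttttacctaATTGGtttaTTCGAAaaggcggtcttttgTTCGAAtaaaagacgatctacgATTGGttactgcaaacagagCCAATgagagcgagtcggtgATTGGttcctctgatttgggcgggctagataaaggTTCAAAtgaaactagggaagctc

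In *Cdc6* the single marked word, an E2F word, lay from -138 to -131 relative to the RefSeq start. The annotation that gives the gene coordinates below starts *Cdc6* at 98907801, ahead of this window. By that annotation the word lies inside the gene. In *Mcm6* 3 E2F words began at -110, -106, and -47. *Cdk1*, the kinase that drives mitotic entry, had an E2F word at -131 to -124 and CHR words at -71 to -66 and -15 to -10. *Cdc20*, an activator of the anaphase-promoting complex, had a CHR word at -18 to -13 between CCAAT words that began at -53 and -8. *Top2a* had 4 CHR words and 6 CCAAT words in the window.

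The first question was whether the levels of these genes differed between genotypes. None of the 37 genes passed the adjusted threshold of 0.05 in any of the 3 comparisons (limma with Benjamini–Hochberg correction over 16507 genes). The smallest adjusted p was 0.999 between *Tbr1*+/K228E and WT embryos, 1.00 between *Tbr1* K228E/K228E and WT embryos, and 0.996 between both mutants. None of the 37 had an unadjusted p under 0.05, and none separated the embryos of 2 genotypes without overlap. Over all genes tested, the share past the adjusted threshold was 0%, 0.127%, and 0.0788% in the same order. The share with an unadjusted p under 0.05 was 1.79%, 3.23%, and 3.30%, and the share without overlap was 0.260%, 0.594%, and 0.878%.

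The differences were small and went mostly one way within a comparison. In *Tbr1*+/K228E embryos, 36 of 37 genes had a higher mean log2 value than in WT embryos, with a median difference of 0.12 and a range from -0.05 to 0.34. In *Tbr1* K228E/K228E embryos, 31 of 37 were lower than in WT embryos, with a median of -0.08 and a range from -0.24 to 0.08. All 37 were lower in *Tbr1* K228E/K228E than in *Tbr1*+/K228E embryos, with a median of -0.19 and a range from -0.41 to -0.03. These medians rest on few embryos, as the first was 0.0051 without WT embryo 4 and -0.07 in females only, and the second was 0.04 without homozygote 2. Over all genes tested, the median difference was -0.00, -0.00, and 0.00, and 48.8%, 48.7%, and 50.2% of genes were higher in the genotype named first. The comparisons share embryos and the 37 genes moved together from embryo to embryo, so these counts of directions are not counts of independent genes. The median 95% interval ran from -0.26 to 0.52, from -0.45 to 0.32, and from -0.60 to 0.17. At their widest, the intervals of single genes reached -0.44 and 0.75, -0.68 and 0.51, and -0.82 and 0.29.

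**Figure D1:**
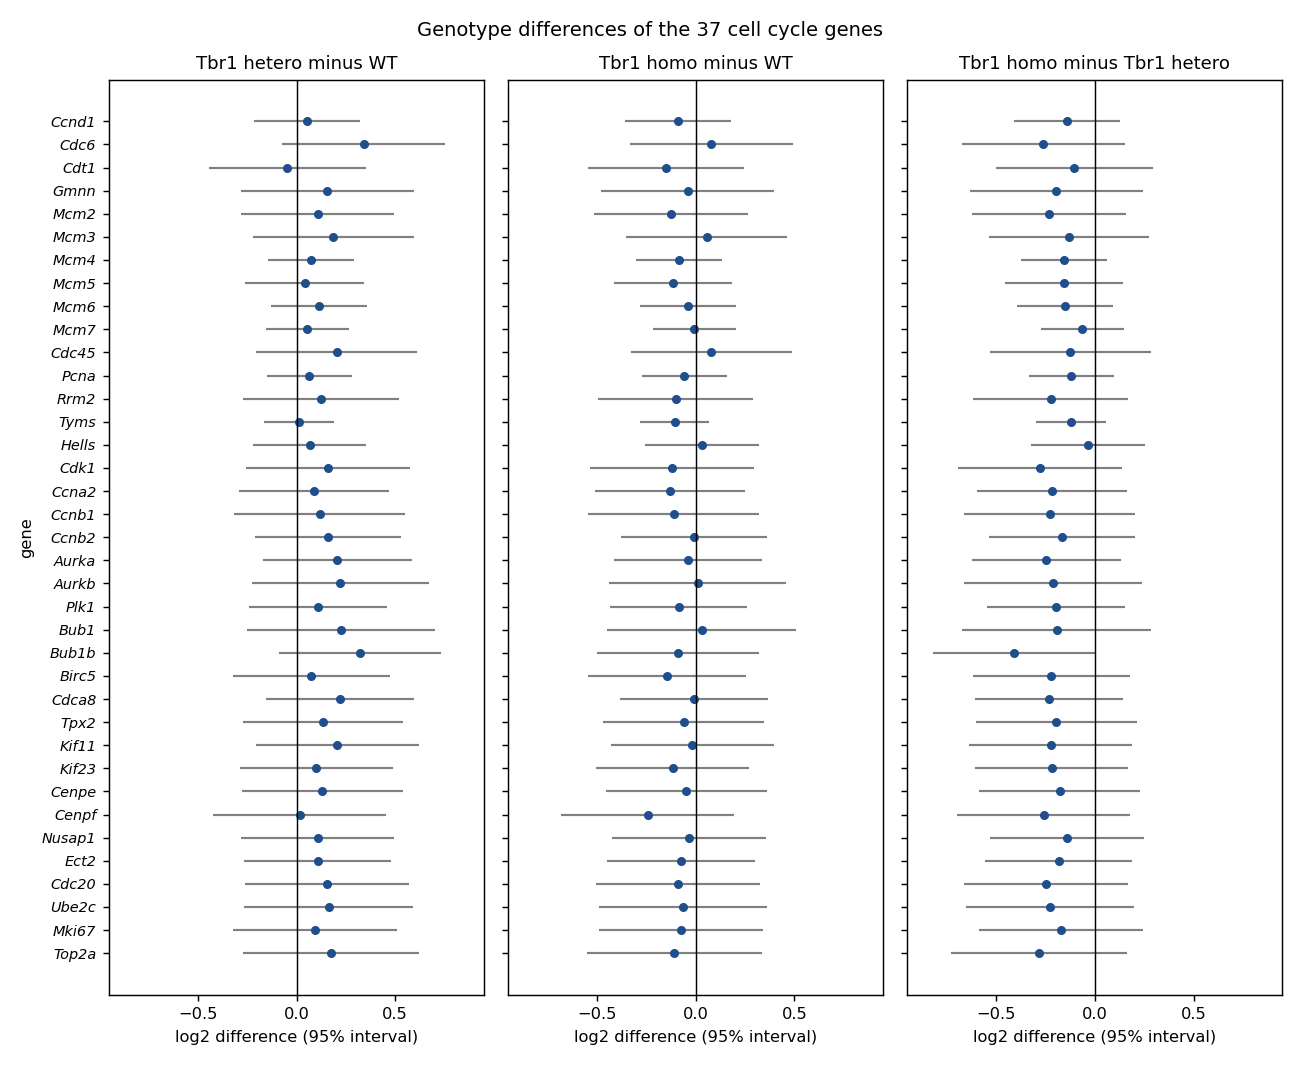
Difference in mean log2(normalized count + 1) between genotypes for each of the 37 genes (rows), with the limma 95% interval as a horizontal line. Intervals include 0 for all genes in all 3 comparisons, and the points lie mostly right of 0 in the first panel (36 of 37) and left of 0 in the third (37 of 37).

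The gene with the smallest p between *Tbr1*+/K228E and WT embryos was *Cdc6* (ENSMUSG00000017499, plus strand of chromosome 11, 98907801 to 98923940), which loads the MCM helicase onto origins. Its normalized counts were 202, 186, 179, 96.3, and 117 in WT embryos 1 to 5, and 166, 206, 210.3, 178, and 194 in *Tbr1*+/K228E embryos. In *Tbr1* K228E/K228E embryos they were 199, 157, 148, 119, and 183. Both WT males (embryos 4 and 5) were far below the 3 WT females, and the 5 *Tbr1*+/K228E embryos lay within the range of the WT females or close to it. The log2 difference between *Tbr1*+/K228E and WT was 0.34 (95% interval -0.07 to 0.75; two-sided exact permutation test of *Cdc6* alone, p = 0.206).

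*Bub1b* encodes BUBR1, a kinase-like protein of the spindle checkpoint, and had the smallest p of the 37 genes in any genotype comparison. It read 979, 1074, 1292, 549.7, and 745 in WT embryos and 1130.2, 1049.6, 1134, 1021, and 1234 in *Tbr1*+/K228E embryos. The *Tbr1* K228E/K228E embryos read 1000, 622, 1047, 720.3, and 874. The 5 heterozygotes were the most uniform group, and only 1 homozygote (embryo 3) exceeded the lowest heterozygote. The difference between *Tbr1* K228E/K228E and *Tbr1*+/K228E was -0.41 (95% interval -0.82 to 0.00; exact permutation p = 0.0159), and its adjusted p was 0.996 (limma). Between *Tbr1*+/K228E and WT it was 0.32 (95% interval -0.09 to 0.73).

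*Cdca8* (borealin of the chromosomal passenger complex) read 733, 789, 769.7, 460.0, and 489.7 in WT, 686, 903, 764, 630.1, and 721 in *Tbr1*+/K228E, and 764, 447, 762, 581, and 640.4 in *Tbr1* K228E/K228E embryos. The log2 difference between *Tbr1*+/K228E and WT was 0.22 (95% interval -0.15 to 0.59; exact permutation p = 0.31). Here too both WT males were below the 3 WT females.

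Between *Tbr1* K228E/K228E and WT embryos, the smallest p-values were those of *Tyms*, *Cenpf*, and *Mcm5*. *Tyms*, thymidylate synthase, read 1135, 991, 1104, 833, and 837 in WT and 959, 902, 869, 855, and 931 in *Tbr1* K228E/K228E embryos. The homozygotes fell between the WT males and the WT females, with a log2 difference of -0.11 (95% interval -0.28 to 0.07; exact permutation p = 0.325). *Tbr1*+/K228E embryos read 912, 1007, 1056, 970.3, and 962, and differed from the homozygotes by a log2 value of 0.12, with an exact permutation p of 0.0397 for *Tyms* alone and an adjusted p of 0.996 (limma).

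*Cenpf*, a kinetochore protein of G2 phase and mitosis, read 1947, 2502, 2237, 1169, and 1463 in WT and 1836, 970.4, 1908, 1398, and 1689 in *Tbr1* K228E/K228E embryos, with 1707, 2188, 1946, 1617, and 1679.7 in *Tbr1*+/K228E embryos. Homozygote 2, a female, was below every other embryo. The log2 difference between *Tbr1* K228E/K228E and WT was -0.24 (95% interval -0.68 to 0.19; exact permutation p = 0.389). *Mcm5*, a helicase subunit, read 1476, 1367, 1429.7, 961, and 949 in WT and 1411, 871, 1177, 1044, and 1165 in *Tbr1* K228E/K228E embryos, a log2 difference of -0.12 (95% interval -0.42 to 0.18). Its *Tbr1*+/K228E embryos read 1188, 1392, 1323, 1135, and 1219.8, between the lowest and the highest WT embryo. *Mcm4*, another subunit, had the second smallest p between both mutants. It read 1305, 1321, 1416, 995, and 1017 in WT, 1187, 1394, 1358, 1131, and 1257 in *Tbr1*+/K228E, and 1303, 988, 1151, 1091, and 1146 in *Tbr1* K228E/K228E embryos. Between both mutants the log2 difference was -0.16 (95% interval -0.38 to 0.06; exact permutation p = 0.111).

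For the gene with the highest mean in each role, the genotypes also overlapped. *Ccnd1*, the D-type cyclin of the list, was 1683 ± 269 in WT, 1737 ± 212 in *Tbr1*+/K228E, and 1584 ± 276 in *Tbr1* K228E/K228E embryos (SD, n = 5 each). It read 1910.1, 1983, 1695, 1378, and 1447 in WT, 1479, 1968, 1882, 1554, and 1805 in *Tbr1*+/K228E, and 1989, 1488, 1373, 1332, and 1736 in *Tbr1* K228E/K228E embryos, and its lowest embryo was a homozygous male. *Mcm7* was 2867 ± 395, 2963 ± 229, and 2847 ± 353, and *Pcna* was 2575 ± 397, 2671 ± 206, and 2464 ± 277 in the same order. *Pcna* read 2783, 2944, 2845, 2052, and 2253 in WT, 2509, 2982, 2778, 2511, and 2573 in *Tbr1*+/K228E, and 2835, 2103, 2585, 2309, and 2485 in *Tbr1* K228E/K228E embryos. The WT males and homozygote 2 were the 3 lowest of the 15. *Ccna2*, the cyclin of S and G2 phase, was 1412 ± 357, 1471 ± 227, and 1277 ± 255. It read 1538, 1676, 1778, 985, and 1081 in WT, 1263, 1817, 1545, 1279, and 1453 in *Tbr1*+/K228E, and 1504, 881, 1338, 1186, and 1478 in *Tbr1* K228E/K228E embryos, with the same 3 embryos lowest. In all 4 the difference between genotype means was smaller than the SD of the WT group, and the SD was lowest in the heterozygotes.

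For *Cdc20* the means were 719.9 ± 178, 788 ± 121, and 677 ± 172. It read 814, 851, 879.9, 505, and 549 in WT, 720.5, 923, 867, 617, and 811 in *Tbr1*+/K228E, and 849, 458, 786, 529.9, and 761 in *Tbr1* K228E/K228E embryos, with homozygote 2 lowest and heterozygote 2 highest. For *Mki67*, which encodes the proliferation marker Ki-67, the means were 4490.2 ± 1194, 4701 ± 809, and 4221 ± 932. *Mki67* read 5062, 5358, 5591, 2917, and 3522 in WT embryos, so the WT males stood at a lower level than the 3 females. The heterozygotes read 4084, 5861, 5173, 3916, and 4473, and the homozygotes 5048, 2789, 4826, 3786, and 4657. The lowest and the highest value of the series thus came from a homozygote (embryo 2) and a heterozygote (embryo 2), both females.

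The other genes of licensing and DNA synthesis had values that overlapped between all genotypes. The helicase subunit *Mcm3* ran from 575 in WT embryo 4 to 1186 in WT embryo 3, and *Mcm6* from 1482 in homozygote 2 to 2279 in heterozygote 3. *Cdc45*, which completes the active helicase, ran from 197 in WT embryo 5 to 405 in heterozygote 2. *Rrm2* ran from 897 in homozygote 2 to 1767 in heterozygote 2. For *Hells*, a chromatin remodeler, both ends came from homozygotes, with 547 in embryo 2 and 892 in embryo 1.

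Among the mitotic cyclins and their kinase, *Cdk1* was 759 ± 205 in WT, 826 ± 115 in *Tbr1*+/K228E, and 692 ± 160.2 in *Tbr1* K228E/K228E embryos (SD, n = 5 each). *Ccnb1* was 1072 ± 295, 1134 ± 169, and 986 ± 241, and *Ccnb2* was 403 ± 104, 438 ± 41.3, and 396 ± 79.4. The mitotic kinases *Aurka*, *Aurkb*, and *Plk1* had the same order of means. They were 354 ± 85.7, 402 ± 50.9, and 344 ± 76.7 for *Aurka*, 446 ± 145, 499 ± 46.6, and 439.7 ± 106 for *Aurkb*, and 566 ± 133, 598 ± 64.6, and 529 ± 110.1 for *Plk1*. *Birc5*, which encodes survivin of the chromosomal passenger complex, ran from 255 in homozygote 2 to 534 in heterozygote 2. In each of these genes the heterozygotes had the highest mean and the smallest SD, and the differences between means were smaller than the WT SD.

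In each spindle gene the lowest embryo was homozygote 2 or WT embryo 4. The spindle assembly factor *Tpx2* ran from 846 in homozygote 2 to 1763 in heterozygote 2, and the motor *Kif11* from 948 in WT embryo 4 to 2157 in heterozygote 2. *Kif23*, a motor of the midbody, ran from 401 in WT embryo 4 to 779 in WT embryo 3. The kinetochore motor *Cenpe* covered 622 to 1334, *Nusap1*, a spindle protein that binds microtubules, 604 to 1098, *Ect2*, the exchange factor that starts cytokinesis, 418 to 810.4, and *Ube2c* 369.9 to 754, with heterozygote 2 highest in all 4. Over the 37 genes, the lowest of the 15 embryos was homozygote 2 in 22 genes and WT embryo 4 in 12, and the highest was heterozygote 2 in 19.

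By role, the median log2 difference between *Tbr1*+/K228E and WT embryos was 0.11 for the 10 licensing and helicase genes, 0.06 for the 4 genes of synthesis and chromatin, and 0.14 for the 4 genes of cyclins A and B with *Cdk1*. It was 0.22 for the 7 mitotic kinases and passenger genes, 0.11 for the 7 spindle, kinetochore, and cytokinesis genes, and 0.16 for *Cdc20* and *Ube2c*, the latter an E2 enzyme of the anaphase-promoting complex. Between both mutants the role medians lay between -0.12 for synthesis and chromatin and -0.24 for *Cdc20* and *Ube2c*. No role stood against the others in sign in these 2 comparisons.

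The second question was how much these genes varied between embryos of the same genotype. Each of the 37 had a within-genotype SD above the value that limma fits for its mean level, which is true of 55.4% of all genes tested. The median SD was 0.325 on the log2 scale, against 0.150 over all genes tested, and 24.5% of all genes exceeded the median of the 37. The SD was 1.28 to 4.76 times the fitted value, with a median of 2.52.

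**Figure D2:**
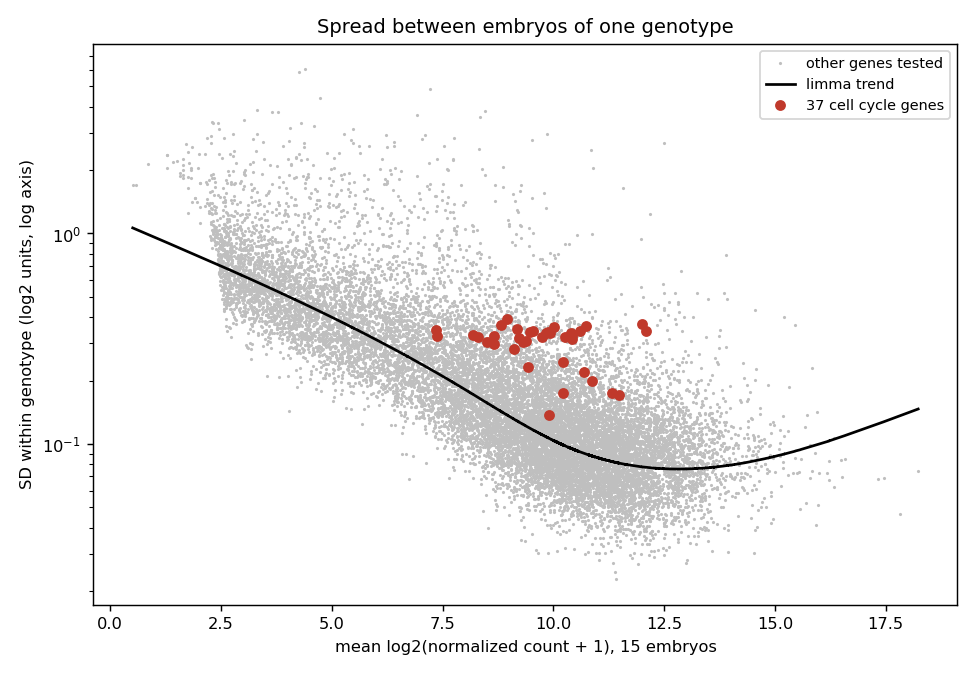
Within-genotype SD of log2(normalized count + 1) (vertical, log axis) against the mean over 15 embryos (horizontal) for 16507 genes (grey points), with the limma trend as a line. All 37 cell cycle genes (red) lie above the line, and most form a band near an SD of 0.325 whatever their level.

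The largest spread was that of *Bub1*, a checkpoint kinase of the kinetochore, with an SD of 0.393. It read 525, 563, 642, 351, and 324 in WT, 444, 730.3, 571, 497, and 510.1 in *Tbr1*+/K228E, and 641, 300.3, 622, 426, and 471 in *Tbr1* K228E/K228E embryos. *Top2a* came next with an SD of 0.370, and read 4686, 5140.4, 5319, 2663, and 2967 in WT, 4079, 5781, 4892, 3652, and 4420.1 in *Tbr1*+/K228E, and 4580.4, 2538, 4425, 3303, and 4104 in *Tbr1* K228E/K228E embryos. In both genes homozygote 2 was the lowest and heterozygote 2 the highest of the 15 embryos. The smallest spread was that of *Tyms* (0.137), followed by *Mcm7* (0.170). *Mcm7* read 2964, 3197, 3241, 2318, and 2616 in WT, 2652, 3273, 2869, 3052, and 2969 in *Tbr1*+/K228E, and 3274, 2518, 3135, 2496, and 2814 in *Tbr1* K228E/K228E embryos.

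The spread differed by role. The median SD was 0.204 for synthesis and chromatin (*Pcna*, *Rrm2*, *Tyms*, and *Hells*) and 0.321 for licensing and helicase genes. It was 0.328 for the cyclins A and B with *Cdk1*, 0.325 for mitotic kinases and passenger genes, 0.336 for spindle and kinetochore genes, and 0.358 for *Mki67* and *Top2a*. Among genes with a promoter window, the 8 with an E2F word had a median SD of 0.283, and the 16 with a CHR word and no E2F word had a median of 0.334, with ranges of 0.17 to 0.343 and 0.283 to 0.393. The 7 genes with neither word had a median of 0.325 and ran from 0.137 to 0.360, so the ranges overlapped. These differences between roles and words are descriptions and were not tested.

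The genes varied together. After the mean of its genotype was taken from each value, the 666 pairs of the 37 genes correlated over the 15 embryos with a median Pearson r of 0.907 (range 0.492 to 0.992) and a median Spearman rho of 0.882. The median over pairs of all genes tested was -0.005, and 0.117% of those pairs exceeded 0.907. Without the 2 embryos farthest from the median (WT embryo 4 and homozygote 2), the median r was 0.871. Over all embryos it was 0.936 among mitotic genes, 0.855 among genes of licensing and synthesis, and 0.875 between both classes. The values of all pairs come from the same 15 libraries, so the pairs are not independent of each other. The genes least tied to the others were *Tyms*, *Ccnd1*, and *Hells*, with mean r values of 0.718, 0.739, and 0.748.

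The order of the embryos was similar in most of the genes. The mean log2 value over the 37 genes was 9.93, 10.004, 10.02, 9.26, and 9.38 in WT embryos 1 to 5. It was 9.73, 10.08, 9.95, 9.65, and 9.84 in *Tbr1*+/K228E embryos, and 9.98, 9.24, 9.79, 9.51, and 9.77 in *Tbr1* K228E/K228E embryos. The group means were 9.72 ± 0.37, 9.85 ± 0.17, and 9.66 ± 0.29 (SD, n = 5 each), and the embryos of the 3 genotypes overlapped. WT embryo 4 was the lowest of its genotype in 28 genes and WT embryo 5 in the other 9. Heterozygote 4 was the lowest in 27 genes and homozygote 2 in 33, whereas heterozygote 2 was the highest in 32 and homozygote 1 in 30. The 37 genes took from 0.097% (homozygote 2) to 0.176% (heterozygote 2) of all normalized counts. In bulk tissue, fewer dividing cells and less RNA of these genes per dividing cell cannot be told apart.

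**Figure D3:**
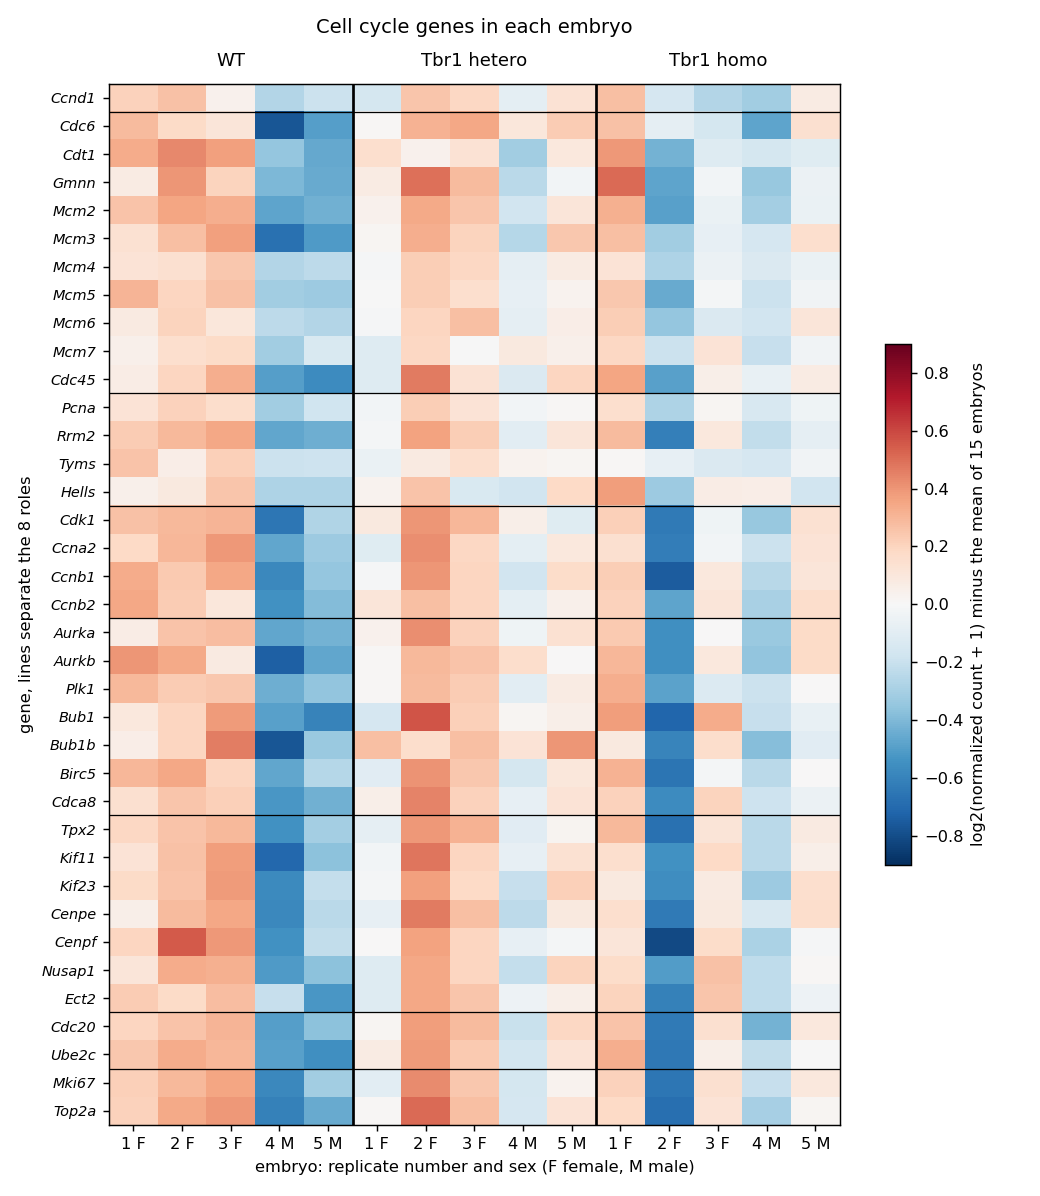
Heat map of the 37 genes (rows, grouped by role) in 15 embryos (columns), coloured by log2(normalized count + 1) minus the mean of the gene over all embryos. The columns of WT embryos 4 and 5 and of homozygote 2 are blue in nearly all rows, and the column of heterozygote 2 is red in nearly all rows.

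The low WT embryos were both males, so the levels were compared between sexes. With genotype and sex in one fit, none of the 37 genes passed the adjusted threshold between the 6 males and the 9 females (0.0788% of all genes did), and the smallest adjusted p was 0.41 (limma). All 37 were lower in males over all genotypes, as were 49.6% of all genes. The median log2 difference of the 37 was -0.30, with a range from -0.43 to -0.14, against a median of 0.00 over all genes. An unadjusted p under 0.05 was found for 22 of the 37, all lower in males, against 11.0% of all genes in either direction and 4.81% of all genes in that direction.

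The smallest p was that of *Gmnn*, which encodes geminin, the inhibitor of relicensing. Its log2 difference was -0.43 (95% interval -0.72 to -0.13), and its adjusted p was 0.41 (limma). An exact permutation test of *Gmnn* alone, with sexes exchanged within genotypes, gave p = 0.017. *Gmnn* read 172, 215, and 187 in WT females and 123 and 119 in WT males, 172, 230.0, and 199 in heterozygous females and 137 and 160.2 in males, and 232, 117, and 160.0 in homozygous females and 128 and 157 in males. In WT and heterozygous embryos every male was below every female, whereas in homozygotes the lowest of the 5 was a female. *Mcm2* (-0.37, 95% interval -0.63 to -0.11) and *Cdt1* (-0.36, 95% interval -0.64 to -0.08), both of origin licensing, came next, each with an exact permutation p of 0.025.

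The median difference between sexes was largest in WT embryos. In a fit with 6 groups of genotype and sex, the median log2 difference between males and females over the 37 genes was -0.69 in WT, -0.18 in *Tbr1*+/K228E, and -0.03 in *Tbr1* K228E/K228E embryos. Over all genes it was 0.00, 0.01, and 0.01. Of the 37 genes, 37, 35, and 25 were lower in males in the same order, so 12 were higher in males among homozygotes. In WT embryos, both males were below all 3 females in each of the 37 genes, as in 17.7% of all genes tested. All 37 had an unadjusted p under 0.05 there, against 17.5% of all genes in either direction, and 8.78% of all genes had such a p with lower values in males. None of the 37 passed the adjusted threshold (0.0666% of all genes did), and the smallest adjusted p was 0.107 (limma). Among the 37 genes none had an unadjusted p under 0.05 in *Tbr1*+/K228E embryos (4.39% of all genes did, and 0.0424% passed the adjusted threshold) or in *Tbr1* K228E/K228E embryos (1.93% and 0.0485%).

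*Mcm2* shows the pattern. It read 1473, 1581, and 1548 in WT females and 888 and 916 in WT males, without overlap. In *Tbr1*+/K228E embryos the females read 1268, 1564, and 1471 and the males 1096 and 1329, and in *Tbr1* K228E/K228E embryos the females read 1539.7, 878, and 1186 and the males 997 and 1187. The heterozygous male 5 was above 1 of the females, and in homozygotes both males lay within the range of the females.

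**Figure D4:**
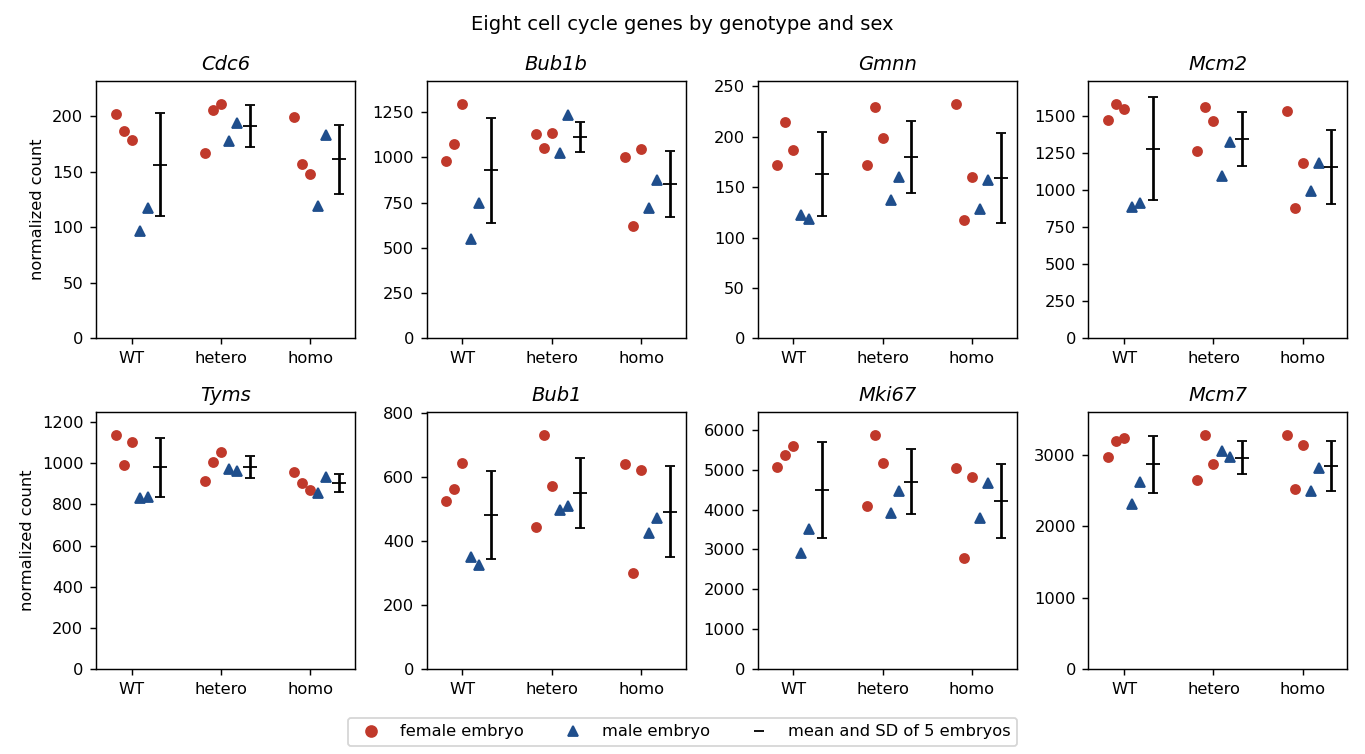
Normalized counts of 8 of the 37 genes in each embryo by genotype, with females as red circles, males as blue triangles, and the mean and SD of 5 embryos in black. In WT embryos the 2 males lie below the 3 females in each panel, for example 888 and 916 against 1473 to 1581 for *Mcm2*, whereas in homozygotes one female lies at or below the males in *Gmnn*, *Mcm2*, *Bub1*, and *Mki67*.

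Whether the sexes differed more in one genotype than in another was tested by the interaction. Relative to WT, the difference between males and females was shifted by a median of 0.48 in *Tbr1*+/K228E and 0.66 in *Tbr1* K228E/K228E embryos. An unadjusted p under 0.05 was found for 6 genes in the former (6.70% of all genes) and 26 in the latter (6.46% of all genes). None passed the adjusted threshold in either, as no gene of the table did (0%), and the smallest adjusted p was 0.734 and 0.752 (limma). The genotype differences accordingly had opposite signs in the sexes. Between *Tbr1* K228E/K228E and WT embryos the median over the 37 genes was -0.33 in females and 0.31 in males, and between *Tbr1*+/K228E and WT embryos it was -0.07 and 0.40. Among females alone, all 3 homozygotes were below all 3 WT embryos in 9 of 37 genes (*Mcm4*, *Tyms*, *Cdk1*, *Ccna2*, *Ccnb1*, *Kif23*, *Cenpf*, *Mki67*, and *Top2a*), as in 4.34% of all genes.

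These values rest on few embryos. Without homozygote 2, which lies outside the WT comparison but enters the shared estimate of the spread, 21 of the 37 genes passed the adjusted threshold between WT males and females (0.927% of all genes did so in that direction), with a smallest adjusted p of 0.0164 (limma). Homozygote 2 was the only embryo whose removal moved this count from that of the full fit, in which none of the 37 passed. The count of 22 genes in the comparison over all genotypes was 3 without WT embryo 4, 5 without WT embryo 5, and 36 without homozygote 2. The count of 26 in the interaction was 5 without WT embryo 4 and 1 without homozygote 5. For these changed counts of 22 and 26 the share of all genes was not computed. They show how far the counts rest on single embryos and are not read as results about the 37 genes. The labels give no litter or day of collection, so sex in WT embryos cannot be told apart from either.

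Genes that act with these 37 were followed in 10 lists of 106 other cell cycle genes, of which 105 were tested and *Cdkn2a* had a mean of 1.5 normalized counts. None passed the adjusted threshold in any genotype comparison. *Pole*, the catalytic subunit of the leading-strand polymerase, was the single gene of the lists with an unadjusted p under 0.05. It read 1022, 1177, 1069, 749, and 768 in WT, 839, 904, 801, 671, and 908 in *Tbr1*+/K228E, and 706, 663, 815, 703, and 619 in *Tbr1* K228E/K228E embryos. The homozygotes lay at or below the level of the WT males, except for embryo 3. The log2 difference between *Tbr1* K228E/K228E and WT was -0.43 (95% interval -0.70 to -0.16), with an adjusted p of 0.735 (limma).

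The next smallest p-values in the genotype comparisons were those of *Cdc25a*, the phosphatase that activates CDK2, *Lin54*, the DNA-binding subunit of MuvB, and *E2f1*. *Cdc25a* differed by 0.14 between *Tbr1*+/K228E and WT embryos (95% interval -0.04 to 0.33), and *Lin54* by -0.17 between *Tbr1* K228E/K228E and WT embryos (95% interval -0.34 to 0.00). *E2f1* was 459.6 ± 111 in WT, 493 ± 48.5 in *Tbr1*+/K228E, and 398 ± 81.9 in *Tbr1* K228E/K228E embryos, a log2 difference of -0.33 between both mutants (95% interval -0.68 to 0.02). The embryos of the compared genotypes overlapped in each of these genes.

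Between the sexes, 34 of the 105 genes had an unadjusted p under 0.05, all of them lower in males, against 4.81% of all genes in that direction, and none passed the adjusted threshold. They made up 8 of 11 kinetochore and checkpoint genes, 3 of 4 genes of nucleotide supply, 5 of 15 origin and helicase genes, 4 of 18 polymerase and fork genes, and 3 of 10 condensin and cohesin genes. There were also 4 of 13 pocket protein and E2F genes, 4 of 13 genes of mitotic entry and exit, 1 of 7 MuvB genes, 1 of 8 G1 cyclins and kinases, and 1 of 6 CDK inhibitors. *Rfc5*, a subunit of the clamp loader, had the smallest p and read 844, 855, and 857 in WT females and 598 and 581 in WT males, with a log2 difference over all genotypes of -0.30 (95% interval -0.42 to -0.17) and an adjusted p of 0.14 (limma). *Spc24*, of the NDC80 complex, read 341, 349, and 319 against 193 and 206, and differed by -0.42 over all genotypes (95% interval -0.65 to -0.19).

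Across the embryos, WT embryo 4 and homozygote 2 were both among the 3 with the lowest mean log2 level in 9 of the 10 lists. The kinetochore list ran from 8.41 in WT embryo 4 to 9.28 in heterozygote 2, with 8.47 in homozygote 2. The list outside this pattern was that of the CDK inhibitors, which restrain the cycle. It ran from 7.62 in WT embryo 4, again a low embryo, to 8.06 in homozygotes 3 and 4. The level was 7.91 in homozygote 2 and 7.93 in heterozygote 2. This mean holds all 7 listed genes, with the untested *Cdkn2a*, which read 0 in WT embryo 4 and 4.77 and 5.44 in homozygotes 3 and 4. The order of embryos thus rests in part on a gene close to 0, and the mean without it was not computed.

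Markers of the cell types that the tissue could hold were read in the same embryos, and their part in the values above was not tested. Levels of 5 markers of ganglionic eminence progenitors (among them *Dlx2* and *Gsx2*) summed to 3925 to 5426 in WT males against 6782 to 9949.7 in WT females, and to 3837 at the lowest in homozygous females. For 6 markers of intermediate progenitors (among them *Eomes* and *Neurog2*) the sums were 3356 to 5035 in WT males and 5666 to 8069 in WT females, with 4333 at the lowest in homozygous females. In both lists the WT males were below all WT females. *Dlx1* made up most of the ganglionic eminence sum, with a mean of 5478 against 1056 for *Dlx2* and 48 for *Gsx2*. Sums of 8 radial glia markers (among them *Pax6* and *Sox2*) covered 36512 to 41433 in WT males and 39502 to 41432 in WT females, with 34986 at the lowest in homozygous females. The largest parts were *Fabp7* (mean 14432) and *Vim* (mean 9913). Homozygote 2 (11.06) and WT embryo 5 (11.07) had the lowest mean log2 level of these 8 among the 15 embryos. Sums of 9 markers of postmitotic neurons covered 228751 to 230485 in WT males and 219056 to 243134 in WT females. None of these markers was at 0 in any embryo.

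In WT embryos, an unadjusted p under 0.05 with lower values in males was found for 5 of 6 intermediate progenitor markers, 2 of 5 ganglionic eminence markers, 3 of 8 radial glia markers, and 1 of 9 neuronal markers, against 8.78% of all genes. It was found for none of the markers of meningeal fibroblasts (8), endothelium (6), microglia (6), oligodendrocyte precursors (5), erythroid cells (6 tested), cerebellum and midbrain-hindbrain (5), and the hindbrain Hox genes (12). The mean log2 level of the cerebellum and midbrain-hindbrain markers ran from 4.35 in heterozygote 2 to 9.82 in WT embryo 4, and their median difference between *Tbr1*+/K228E and WT embryos was -0.87. The Hox genes also varied widely, and heterozygote 2 was again lowest, with a mean log2 level of 0. Heterozygote 1 (7.78) and WT embryo 4 (7.52) were highest. Hox sums were 5 and 3219 in the WT males, 14 to 1126 in WT females, 0 to 3776 in heterozygous females, and 4 to 574 in homozygous females. Of the 12 Hox genes, 10 were at 0 in 4 or more embryos. Meningeal sums ran from 397 to 32198 among WT females alone. Neither mutant genotype differed from WT past the adjusted threshold in any marker of the cell type lists.

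**Figure D5:**
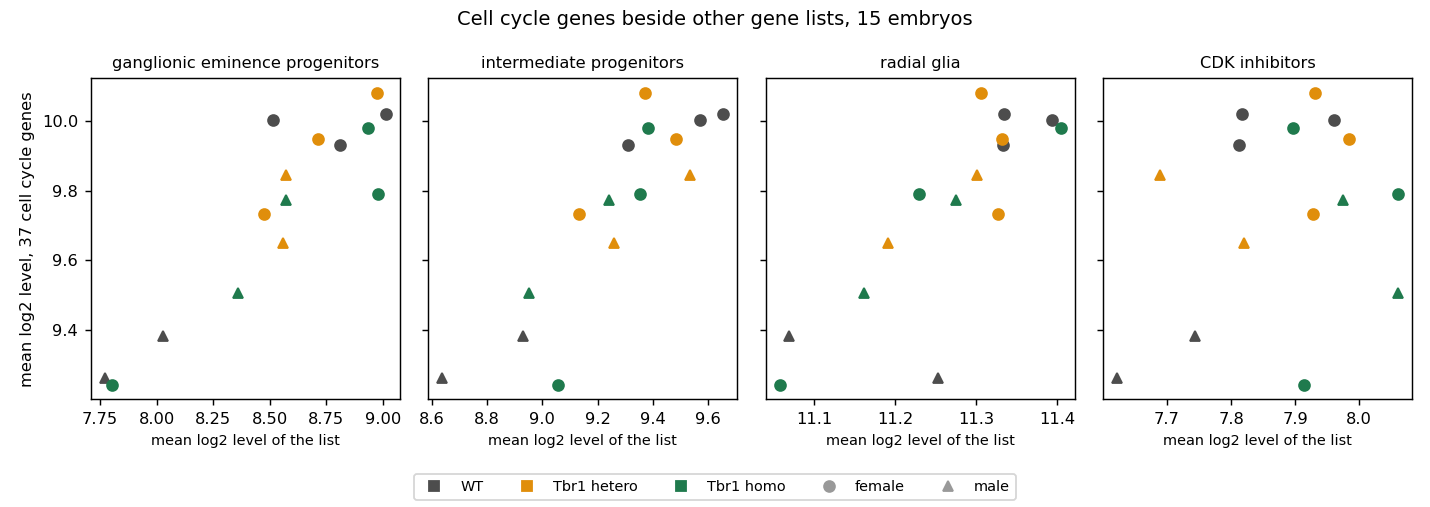
Mean log2 level of the 37 cell cycle genes (vertical) against the mean log2 level of 4 other gene lists (horizontal) in 15 embryos, coloured by genotype, with circles for females and triangles for males. WT embryos 4 and 5 and homozygote 2 lie at the lower left for ganglionic eminence markers (7.77, 8.03, and 7.80). The CDK inhibitors, with the untested *Cdkn2a* in the mean, cover 7.62 to 8.06, with WT embryo 4 lowest and homozygote 2 at 7.91.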

How the data were processed

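RNA-Seq libraries (TruSeq RNA Sample Prep Kit v2, paired-end reads) were made from brains of 15 embryos. The authors estimated transcript abundance with Salmon 0.11.2 on GRCm38, imported it into R 3.5.3 with tximport, and divided gene counts by DESeq2 1.22.2 size factors. The deposited values are this normalized signal per gene, not whole counts. The values come from estimated abundances and are not multiples of whole reads, so a count model was left out. The study does not state whether a correction for transcript length entered them. The annotation release is not given in the sources used here.

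Groups, sex, and replicate numbers were taken from the labels. Identifiers were matched to symbols for 19452 of 19475 genes. The test was limma 3.58.1 in R 4.3.3, a linear model per gene of log2(value + 1) with a prior spread that follows the mean. Adding 1 understates changes of low genes. The fit held all 15 embryos and each gene with a mean of 5 or more, and the threshold on the Benjamini–Hochberg adjusted p was 0.05. Single genes were compared by two-sided exact permutation tests, over 252 arrangements of 5 against 5 embryos (smallest p 0.00794) or, for sex, over 1000 arrangements within genotypes. The labels do not say whether embryos of one genotype shared a litter.

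The 37 genes and all lists were chosen with earlier results of these data known. One listed marker is not reported here. Values in every embryo are given for the 3 genes with the smallest p in each genotype comparison, the gene with the highest mean in each of 8 roles, and the 2 largest and 2 smallest spreads. The 2 further cell cycle genes with the smallest p in each comparison are also named. The 3 genes with the smallest p between sexes, the comparison of sexes within genotypes, the interaction, the comparison of females alone, and the meningeal covariate were added after seeing the data. Other settings were pseudocounts of 0.1 and 10, a minimum mean of 50 or none, upper quartile scaling, quantile normalization, robust eBayes, 2 genotypes fitted alone, and each embryo left out. Sex and the Hox list served as covariates, and the replicate number as a blocking term.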

Additional observations from a re-analysis of the deposited data

Results flagged for a closer look

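One of 111 groups of 5 embryos (37 genes in 3 genotypes) held an embryo far from the others by Dixon's test, which by chance marks about 1 group in 20. *Cdt1*, the licensing factor that loads the MCM helicase together with *Cdc6*, was 251 normalized counts in *Tbr1*+/K228E embryo 4, a male, against 321 to 348 in the other 4 heterozygotes. On the log2 scale this was 7.98, and the gap to the nearest embryo was 0.757 of the range of the group. WT embryos 4 and 5 and homozygote 2 had *Cdt1* values as low or lower (246, 228, and 232), and were not marked. The test weighs the gap to the nearest embryo against the range of the group. The WT males were close to each other (log2 values of 7.95 and 7.84). Homozygote 2 (7.87) had homozygote 4 (8.14) next to it in a group with a range of 0.818.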

How the results depend on the processing

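Over 28 settings, 904 values were recomputed, and 867 were scored as unchanged. For single genes this meant the same direction and side of the threshold, and for counts a change within a fixed ratio. Median differences were so scored if they moved by less than the spread between embryos (0.286). That spread is larger than the 3 genotype medians, so the score let them change sign and does not show that their directions held. None of the 37 genes passed the adjusted threshold in any genotype comparison or between all males and females under any setting run. The median difference ranged from -0.07 (females only) to 0.20 between *Tbr1*+/K228E and WT, from -0.33 (females only) to 0.04 (without homozygote 2) between *Tbr1* K228E/K228E and WT, and from -0.28 to -0.09 between both mutants, and the median SD from 0.287 to 0.339. *Bub1b* between *Tbr1*+/K228E and WT reversed to -0.0044 in females only. Genes without overlap in females only were 1, 9, and 1 in the 3 comparisons, and leaving out an embryo gave 0 to 1 between both mutants. The 9 were all lower in homozygotes than in WT, as in 4.34% of all genes. For the other counts the share of all genes was not computed, so they are not read as results about the 37 genes. Between males and females, the count of 22 was 34 with the Hox list as a covariate and 3 to 36 when an embryo was left out. Leaving out an embryo gave 0 to 21 genes past the adjusted threshold and 23 to 37 at an unadjusted p under 0.05 between WT males and females, and 1 to 33 in the interaction of *Tbr1* K228E/K228E with sex. Apart from the 21, the share of all genes was not computed for these changed counts between sexes. The cause of the shifts between settings was not tested. With the replicate number as a block, the medians were 0.12, -0.08, and -0.19 and no gene passed. Same-numbered embryos are different animals, and their deviations correlated with r from -0.23 to 0.51. Whether the numbers stand for a shared litter or batch was not tested, and these values cannot decide it. The replicate number also follows sex in each genotype, so the block holds sex as well. Counting error of these genes was at most 0.11 on the log2 scale.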
